A study of Homo sapiens with 38 samples.

Results

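The genes described here are the immediate-early transcription factors of the FOS, JUN and EGR families: FOS, FOSB, FOSL1, FOSL2, JUN, JUNB, JUND, EGR1, EGR2 and EGR3. They were chosen by name, not by their values, and each was followed through the probe sets that the array annotation assigns to it alone. Of the 10 genes, 9 were named, by 21 probe sets, and 8 passed a filter on low signals and were tested among 11440 genes. EGR2 was not analysed here. EGR3, a zinc-finger factor related to EGR1, was below the low-signal level of 45.7 on all 38 arrays, with 27.0 as its highest signal, and was not tested.

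Immediate-early genes are transcribed within minutes of a growth factor or stress signal, without new protein synthesis, and most of their mRNAs are short-lived. FOS proteins pair with JUN proteins to form AP-1, which binds short DNA elements in the control regions of growth, invasion and stress genes, and EGR1 is a zinc-finger factor that binds GC-rich promoters. MAP kinases drive many of these genes through the factors SRF and ELK at CArG boxes, and through CREB and ATF proteins at cyclic AMP response elements (CRE).

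The study measured mRNA in 2 human cancer cell lines under conditions that stress the endoplasmic reticulum, with and without compounds that act on mitochondria. HT-1080 is a fibrosarcoma line and HT-29 a colorectal adenocarcinoma line, and each also had a rho0 derivative that lacks mitochondrial DNA. The stresses were 2-deoxyglucose (2DG), a glucose analog that blocks glycolysis, glucose starvation (GS), and tunicamycin (TM), which blocks N-glycosylation. The series holds 26 treated and 12 control arrays, and each treated array's description names 1 control array.

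In HT-1080, single arrays held 2DG with metformin (Met, 10 mM), buformin (Bu, 300 µM), phenformin (Phen, 100 µM), rotenone (Rot, 100 nM), antimycin A (AA, 10 ng/ml) or versipelostatin (VST, 3 µM). Met, Bu and Phen are biguanides. They and Rot inhibit respiratory complex I, and AA inhibits complex III. Single HT-1080 arrays held GS with Rot, with Rot or AA in cultures labelled as having the supernatant (GS+Rot_S and GS+AA_S), with VST, and TM with Rot or AA. The rho0 HT-1080 line had 1 array each of 2DG, GS (labelled as having the supernatant) and TM. In HT-29 there was 1 array of GS with VST and 1 of rho0 cells under GS. Stress alone had 3 arrays of 2DG, 2 of GS and 1 of TM in HT-1080, and 3 of GS in HT-29. Controls were 2 rho0 and 6 parental HT-1080 arrays, and 1 rho0 and 3 parental HT-29 arrays. Exposure lasted 18 h, except 14 h for the rho0 HT-29 cells under GS and for GS array 3 of parental HT-29, because 18 h badly damaged the rho0 cells per the labels. No array held a compound without stress, so the effect of a compound in unstressed cells was not measured. The sources used here give no dose for 2DG or TM.

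The values are MAS5 signals, which are linear array brightness per probe set, scaled here so that each array had a trimmed mean of 114. A difference is on the scale of log2(signal + 5.71), and this offset understates changes of dim genes. Signals are not comparable between genes, since each probe set has its own brightness. The brightest probe set stood for its gene. A gene is said to have risen or fallen where limma's Benjamini-Hochberg adjusted p over all 11440 genes was under 0.05. Where a group is 1 array, as for TM, each VST group and the rho0 HT-29 control, the spread comes from the other groups in the fit, and the lone array is assumed to vary like them. FOSB passed the low-signal filter through 4 arrays only, all of GS alone, so its differences from those arrays are given as values with no p. In bulk RNA, fewer expressing cells and less mRNA per cell cannot be told apart, nor can faster transcription and slower decay.

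The deposited arrays differed in ways that follow the treatments. Before scaling, the trimmed mean lay between 89.9 and 103 where a compound was added to 2DG or GS (11 arrays) and between 90.7 and 96.8 in rho0 cells under 2DG or GS (3 arrays), against 122 to 131 on the 9 arrays of parental stress alone and 125 to 137 on the 9 parental controls. The ratio of 3' to 5' probe-set signals of ACTB, a measure of RNA integrity, was 1.21 to 1.76 on those 11 arrays, against 1.04 to 1.42 for stress alone and 1.06 to 1.30 in parental controls. Of the 11 arrays, GS+Rot, GS+Rot_S and GS+AA_S had the highest ratios, at 1.51, 1.67 and 1.76. For GAPDH this ratio was 0.929 to 1.07 on the 11 arrays, 0.919 to 1.02 for stress alone and 0.922 to 1.03 in parental controls. The part of the trimmed mean and of these ratios in the results with compounds was not tested. Keeping the deposited scaling moved the median difference of all genes down by more than 0.1 in several comparisons. These were all those of 2DG or GS with a compound against that stress alone, and of rho0 against parental cells. For inhibitors with 2DG the median was -0.48, against -0.12 with the common trimmed mean. The line labels matched their markers: all 8 mesenchymal markers were higher in HT-1080, and all 6 measured colon epithelial markers were higher in HT-29. Probe sets for mitochondrially encoded genes had mean signals of at most 7.25 in the rho0 lines.

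Promoter sequences are shown for 4 of the tested genes, EGR1, FOS, JUND and FOSL2. They come from RefSeq (GRCh38.p14) and run from 250 bases before to 50 after the annotated start, 5′ to 3′ on the gene's strand. A script searched both strands for the CArG box, by its name, the CRE (TGACGTCA), the AP-1 element (TGANTCA) and an EGR element (GCGTGGGCG), and matches are in capitals. EGR1 lies at chr5:138465479-138469303 and its window at chr5:138465229-138465528 (+ strand). It held 2 CArG boxes, at positions -105 to -96 and -83 to -74 from the start, a motif found in 1.29% of 35116 promoter windows.
EGR1: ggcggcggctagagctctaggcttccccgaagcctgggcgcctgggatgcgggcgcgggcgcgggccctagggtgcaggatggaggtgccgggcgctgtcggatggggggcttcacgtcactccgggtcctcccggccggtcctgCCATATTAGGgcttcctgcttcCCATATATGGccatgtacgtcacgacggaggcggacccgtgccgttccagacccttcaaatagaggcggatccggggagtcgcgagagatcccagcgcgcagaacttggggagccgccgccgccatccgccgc
FOS lies at chr14:75278828-75282230, and its window at chr14:75278578-75278877 (+ strand) held none of the 4 motifs. That says only that these letters do not occur in this window.
FOS: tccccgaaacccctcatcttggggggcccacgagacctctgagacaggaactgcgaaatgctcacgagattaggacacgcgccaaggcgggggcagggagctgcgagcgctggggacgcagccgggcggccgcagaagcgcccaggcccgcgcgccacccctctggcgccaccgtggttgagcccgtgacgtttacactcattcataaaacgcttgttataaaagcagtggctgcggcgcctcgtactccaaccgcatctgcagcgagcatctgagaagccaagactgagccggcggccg
JUND, at chr19:18279694-18281622 on the - strand, had 1 CRE at -200 to -193 in the window chr19:18281573-18281872, and 1.85% of all windows held one.
JUND: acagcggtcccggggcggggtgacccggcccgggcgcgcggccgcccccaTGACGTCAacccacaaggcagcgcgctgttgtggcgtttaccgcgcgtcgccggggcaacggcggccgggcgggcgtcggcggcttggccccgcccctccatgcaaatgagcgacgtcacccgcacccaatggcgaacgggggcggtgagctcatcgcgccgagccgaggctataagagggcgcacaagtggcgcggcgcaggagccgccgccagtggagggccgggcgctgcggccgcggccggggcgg
FOSL2, at chr2:28392858-28417317, had 1 AP-1 element at 5 to 11 bases after its start in the window chr2:28392608-28392907 (+ strand), and 7.71% of all windows held one.
FOSL2: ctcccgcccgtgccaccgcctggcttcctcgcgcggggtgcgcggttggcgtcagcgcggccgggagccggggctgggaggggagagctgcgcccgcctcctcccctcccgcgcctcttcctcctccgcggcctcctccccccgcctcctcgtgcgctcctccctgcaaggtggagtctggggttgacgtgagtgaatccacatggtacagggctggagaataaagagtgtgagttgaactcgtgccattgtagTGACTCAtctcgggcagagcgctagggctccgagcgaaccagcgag
The EGR element, found in 0.795% of all windows, was in none of the 7 windows of tested members. Of the other tested members, FOSB (chr19:45467996-45475179), JUN (chr1:58780791-58784047) and JUNB (chr19:12791486-12793315) held none of the 4 motifs in their windows, and FOSL1 lies at chr11:65892049-65900545. Matches are a description of the sequence and do not show binding.

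Before any stress, the 2 lines differed in 5 of the 8 genes. FOS and EGR1 were lower in HT-1080 than in HT-29, while FOSL1, FOSL2 and JUN were higher. The background was high, since 59.9% of all genes tested differed between the lines' controls (32.4% higher and 27.5% lower in HT-1080). EGR1 had signals of 30.6, 76.6, 43.1, 17.9, 30.8 and 39.3 in the 6 HT-1080 controls, against 436, 721 and 272 in HT-29 controls. All but 1 of the HT-1080 values were below the low-signal level, and the lines did not overlap (log2 difference -3.40, SE 0.34, adjusted p = 8.39e-07). FOS ranged over 6.51 to 15.6 in HT-1080 controls, all below the low-signal level, against 65.0 to 96.8 in HT-29 controls (-2.36, SE 0.26, adjusted p = 1.91e-06). FOSL1, which encodes Fra-1, a FOS relative without the strong activation domain of FOS, was 758 to 1405 in HT-1080 and 180 to 283 in HT-29 controls (2.20, SE 0.20, adjusted p = 3.09e-07). JUN was 703 to 1032 in HT-1080 and 395 to 476 in HT-29 controls (0.92, adjusted p = 0.000147), and FOSL2, which encodes Fra-2, was 287 to 376 in HT-1080 and 118 to 210 in HT-29 controls (0.84, adjusted p = 0.000752). FOSB, JUNB and JUND had differences of 0.04, 0.00 and 0.09, with intervals of -0.82 to 0.90, -0.40 to 0.41 and -0.29 to 0.48.

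In unstressed HT-1080 cells, 1 member was higher in rho0 than in parental controls, where 13.2% of all genes were called and 6.26% rose. FOSL2 was 492 and 576 in the 2 rho0 controls, above the range of 287 to 376 in parental controls (0.75, SE 0.20, adjusted p = 0.0252). With the deposited scaling the difference was 0.57 without a call, and 18.0% of all calls were upward instead of 47.5%. The call also needed both rho0 arrays, since leaving out rho0 control 1 or 2 gave 0.86 and 0.63 without a call. The mean of all FOSL2 probe sets gave 0.63 without a call. EGR1 was 108 and 80.2 in rho0 controls, just above the highest parental value of 76.6 (1.23, adjusted p = 0.0558). Leaving out parental control 2, which has that value, gave 1.42 with a call. In HT-29, where 7.95% of genes were called by limma, no member was, and 2 were under an unadjusted p of 0.05. EGR1 was 124 in the 1 rho0 control, below all 3 parental values (-1.79, adjusted p = 0.0673), and without parental control 3 the difference was -2.13 and called. It was also called with the deposited scaling (-2.00), where 20.9% of all calls were upward instead of 49.9%, and with quantile normalization (-1.92).

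Across the 26 treated arrays, EGR1 was the member most often above its own control. It was more than 1 log2 unit higher on 23 arrays and more than 1 unit lower on 0, with a median difference of 4.08 and a highest of 7.56. FOS was more than 1 unit higher on 18 arrays and lower on 2, from -1.60 to 6.51. JUN and FOSL1 each passed 1 unit upward on 13 arrays, FOSB on 10, JUNB on 5 and JUND on 4. FOSL2 ran the other way by its brightest probe set, more than 1 unit lower on 14 arrays and higher on 1. Its probe set 218880_at did not share this fall. With respiratory inhibitors under 2DG, 218880_at was 0.71 to 1.88 above own controls, and in rho0 cells under 2DG or GS 1.00 to 1.83 above. Under 2DG alone 218880_at ran from -0.59 to 0.46. The treated arrays share control arrays, so they are not 26 independent tests.

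**Figure D1:**
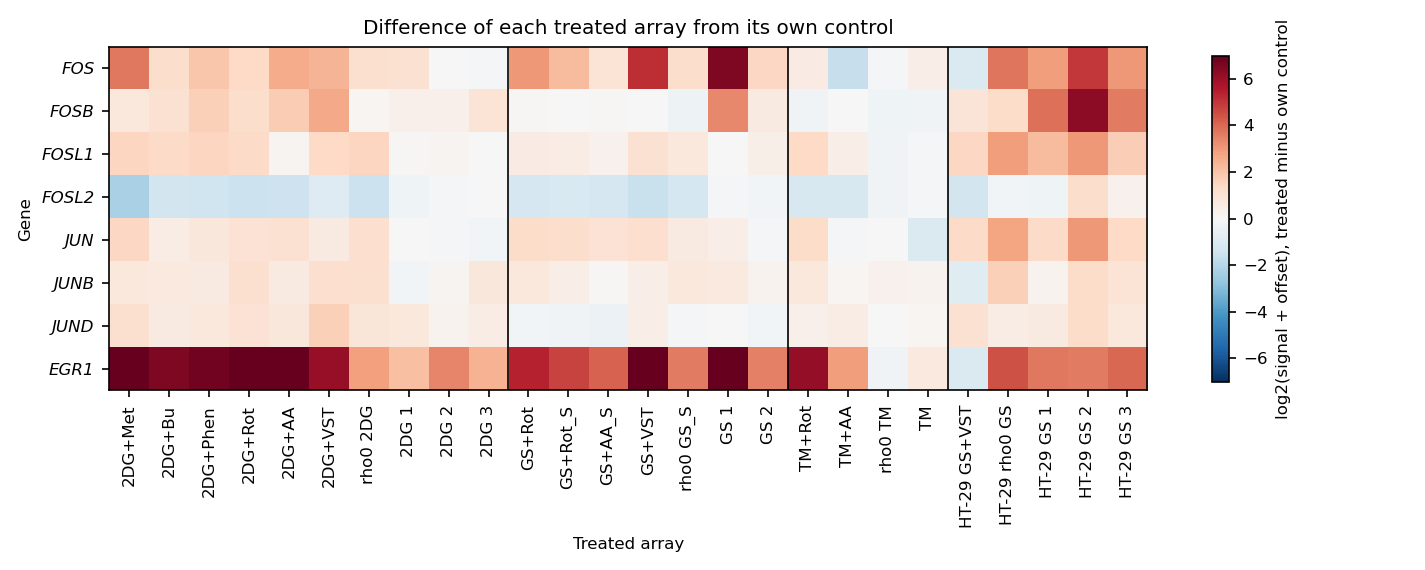
Difference of each treated array from its own control for the 8 tested genes, as log2 of signal plus offset. Each column is 1 array, grouped by 2DG, GS and TM in HT-1080 and then HT-29, with compound and rho0 arrays left of stress alone, and the colour scale ends at 7. EGR1 reached 7.56 under 2DG with Met. FOSL2, drawn by its brightest probe set, was below its control on every array where a compound was added to 2DG or GS. Its probe set 218880_at, not drawn, was above its control on these arrays.

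2DG alone gave a moderate EGR1 response. EGR1 and JUND rose in HT-1080 under 2DG, and 8.36% of all genes were called, 4.89% upward. EGR1 was 355, 245 and 188 on the 3 2DG arrays, against 76.6, 17.9 and 30.8 on their own controls. All 3 2DG values were above every control value of the line (2.65, SE 0.50, adjusted p = 0.0103, a 6.28-fold difference). JUND, the JUN family member that most resting cells express, was 919, 1323 and 1357 under 2DG, against 554, 1104 and 944 on the own controls (0.50, SE 0.14, adjusted p = 0.0496). Each 2DG array was above its own control, although the ranges overlap. Both calls depended on single arrays. Leaving out any 1 of the 3 2DG arrays or its own control ended the EGR1 call, with values of 2.27 to 2.91, and JUND lost its call in 8 of 9 such fits, with 0.39 to 0.62, and with the deposited scaling, at 0.47. Over the 8 members the median difference was 0.30, against 0.02 over all genes, and FOS, FOSB, FOSL1, FOSL2, JUN and JUNB had fitted differences between -0.14 and 0.56.

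Glucose starvation raised EGR1 and FOS in HT-1080, where 9.41% of all genes were called and 4.26% rose. EGR1 was 6123 and 519 on GS arrays 1 and 2, against 30.6 and 39.3 on their own controls, so the 2 arrays differed widely from each other while both were far above the controls (5.47, SE 0.62, adjusted p = 0.00243). FOS, the founding AP-1 subunit, was 1393 and 48.8 on GS arrays 1 and 2, against 9.68 and 14.5 on their own controls (3.97, SE 0.87, adjusted p = 0.0192). The FOS result rests on GS array 1, because without it or its control the difference was 1.43 (adjusted p = 0.381). EGR1 stayed called in every such fit, at 7.40 from array 1 alone and 3.54 from array 2 alone. FOSB, a FOS relative known from repeated stimulation of neurons, was 112 and 6.98 under GS against 5.75 and 2.57 on own controls (fitted difference 1.99). FOSL1, FOSL2, JUN, JUNB and JUND had fitted differences from -0.14 to 0.47.

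The difference between GS and 2DG in HT-1080 was not resolved. Limma called 0 members and 0.0175% of all genes, 1 upward and 1 downward (0 and 1 with the deposited scaling). Under an unadjusted p of 0.05 there were 3 members and 873 of all 11440 genes. The fitted difference of GS minus 2DG was 3.65 for FOS (95% interval 1.19 to 6.11, adjusted p = 0.524) and 2.82 for EGR1 (1.07 to 4.57, adjusted p = 0.478). Without GS array 2 or its control it was 6.19 for FOS and 4.75 for EGR1, both called. TM, on 1 array, had EGR1 at 66.2 against 39.3 on its own control, FOS at 22.1 against 14.5, and JUN at 427 against 870. The JUN value was the lowest on any HT-1080 array. Limma called 0 members and 0 of 11440 genes for TM, with 0 members and 686 genes under an unadjusted p of 0.05.

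Glucose starvation in HT-29 raised EGR1, FOS, FOSL1, JUN, JUND and JUNB, in a comparison in which 27.2% of all genes were called and 11.6% rose. EGR1 was 5768, 8928 and 4484 on GS arrays 1, 2 and 3, against 436, 721 and 272 on their own controls. Every GS value was above every control, although the controls of HT-29 already had measurable EGR1 (3.78, SE 0.50, adjusted p = 0.000901). FOS was 531, 3179 and 687 under GS, against 65.0, 96.8 and 77.8 on own controls (3.65, SE 0.71, adjusted p = 0.00452). FOSB was 118, 830 and 98.9 under GS, against 2.76, 5.04 and 2.69 on own controls, a fitted difference of 4.60. These 3 and the HT-1080 GS array 1 were the 4 arrays on which FOSB reached the low-signal level, so this difference follows in part from the filter. FOSL1 was 1073, 1516 and 954 under GS, against 227, 180 and 283 on own controls (2.33, SE 0.19, adjusted p = 0.000130).

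The JUN family rose in the same HT-29 cells. JUN, the strongest activator of its family, was 1199, 3207 and 1229 under GS, against 476, 395 and 469 on own controls (1.90, SE 0.26, adjusted p = 0.00101). JUND was 1155, 1944 and 1291 under GS, against 739, 807 and 776 on own controls (0.88, SE 0.14, adjusted p = 0.00196). JUNB, which can restrain JUN activity, was 134, 464 and 206 under GS, against 113, 186 and 104 on own controls, with overlapping ranges (0.83, SE 0.23, adjusted p = 0.0235). The JUNB call was lost without GS array 2 or its control, at 0.59, and without GS array 3 or its control, at 0.76. FOSL2 was 166, 289 and 262 under GS, against 210, 118 and 209 on own controls (0.42, adjusted p = 0.216), and without GS array 1 it was 0.79 with a call. GS array 2 had the highest signal of the 3 for all 8 genes, and array 3 was exposed for 14 h instead of 18 h.

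Tested directly, the GS response of FOSL1 was smaller in HT-1080 than in HT-29. FOSL1 was 809 and 995 on HT-1080 GS arrays 1 and 2 against 825 and 758 on own controls, a fitted 0.18, compared with 2.33 in HT-29 (difference -2.15, 95% interval -2.81 to -1.48, adjusted p = 0.0132). It was the 1 member called in a comparison in which 0.568% of all genes were, 0.402% downward. It lost the call without HT-1080 GS array 1 or its control, at -1.94, and without array 2 or its control, at -2.36. After GS the FOSL1 signals of the lines were side by side, at 809 and 995 in HT-1080 and 954 to 1516 in HT-29, while HT-29 controls were lower than HT-1080 controls. JUN had a difference of -1.75 (adjusted p = 0.0971), called at -1.19 without HT-29 GS array 2 and at -2.01 without array 3. JUND had -0.94 (adjusted p = 0.100), FOSB -2.60 and EGR1 1.69 (adjusted p = 0.390).

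**Figure D2:**
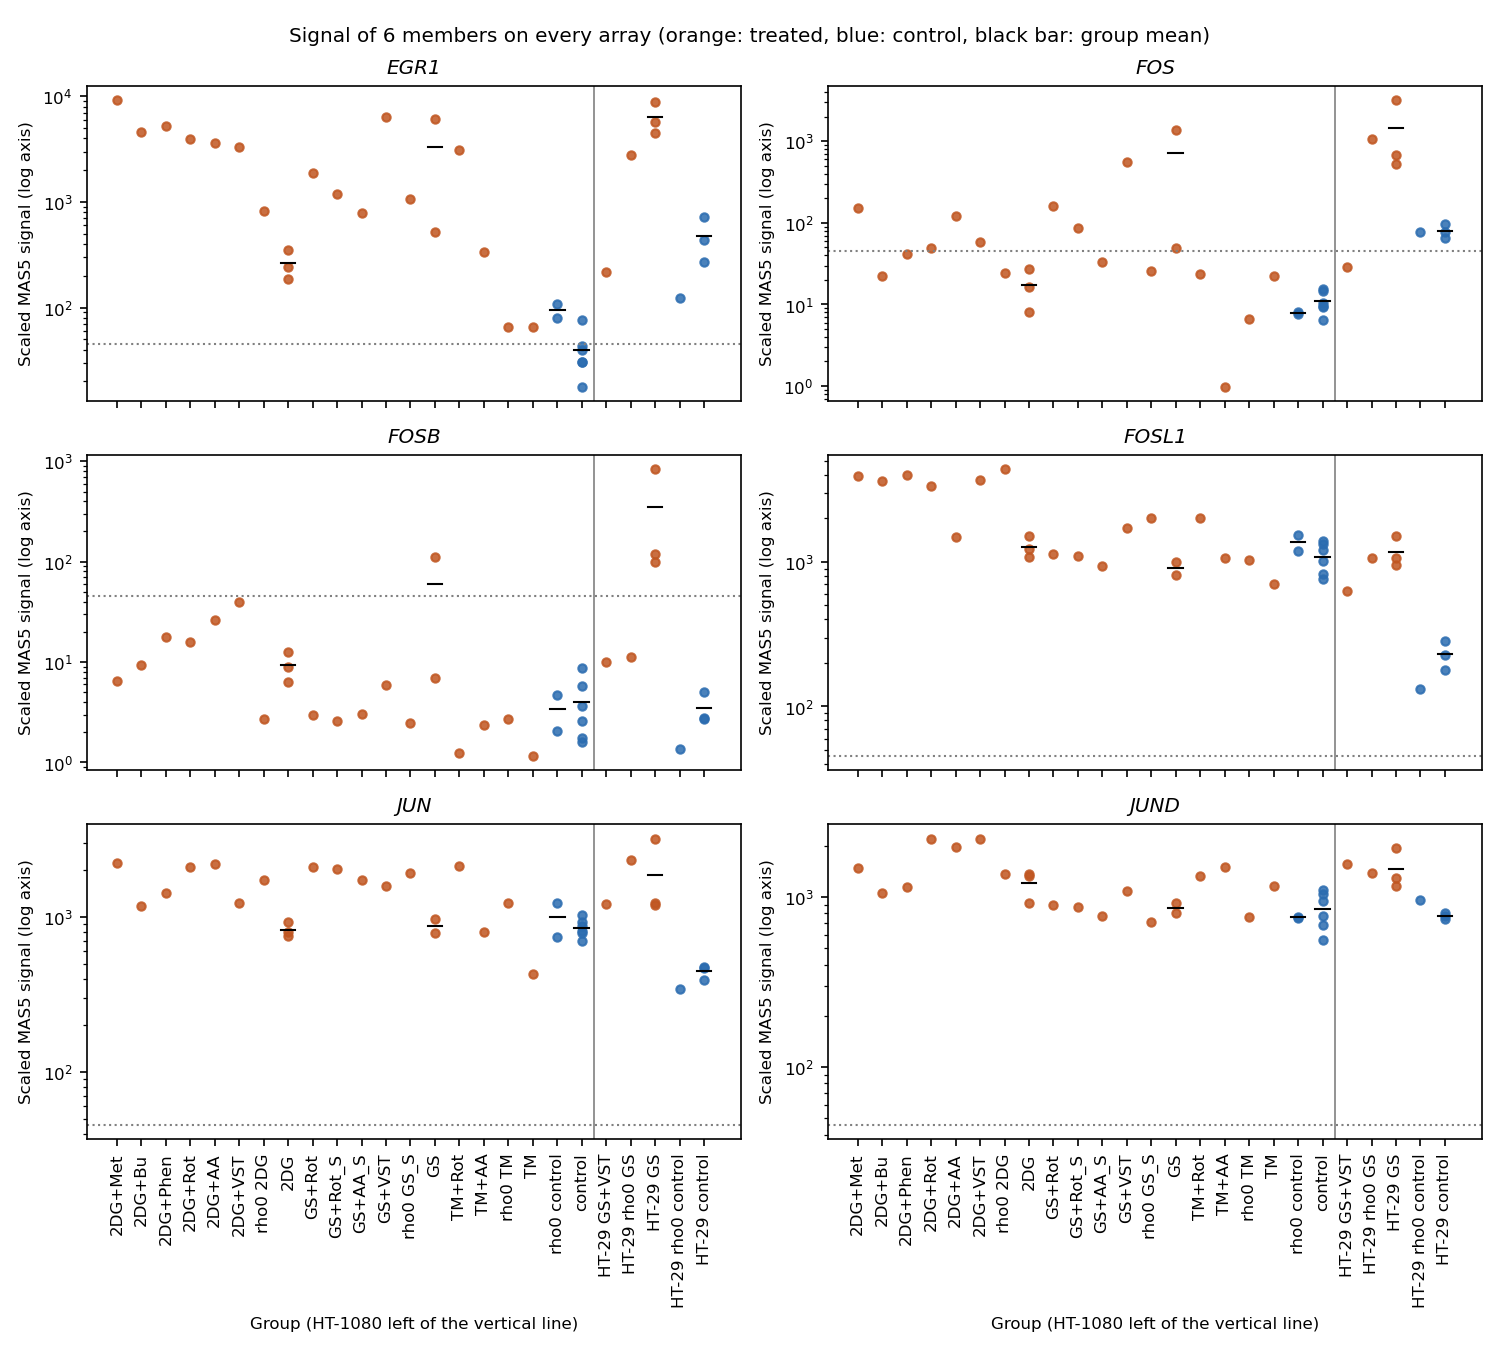
Scaled MAS5 signal (log axis) of 6 genes on every array, by group, with HT-1080 groups left of the vertical line and HT-29 groups right of it. Each point is 1 array, black bars are group means where a group has over 1 array, and the dotted line is the low-signal level of 45.7. EGR1 lies at 3305 to 9187 on the 6 arrays of 2DG with a compound, against 188 to 355 under 2DG alone and 17.9 to 76.6 in parental HT-1080 controls.

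Respiratory inhibitors under 2DG raised EGR1 far above the level under 2DG alone. EGR1 was 9187 with Met, 4583 with Bu, 5191 with Phen, 3929 with Rot and 3600 with AA, against 355, 245 and 188 under 2DG alone. All 5 values were above all 3 (4.29, SE 0.72, adjusted p = 0.000226, a 19.6-fold difference), and every leave-one-out fit kept the call, at 4.12 to 4.85. This comparison called 34.6% of all genes, 12.8% upward and 21.8% downward, and of the 8 members 4 rose and 1 fell, with a member median of 0.87 against -0.12 over all genes. Under the deposited scaling 1 member rose and 1 fell, and 7.23% of all calls were upward instead of 36.9%. Rot, AA and 2DG array 2 share control 4, and within that set EGR1 was 3929 and 3600 against 245. Met, Bu and Phen share control 3, which is the control of no array of 2DG alone.

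FOSL1 and JUN also rose in the comparison of inhibitors with 2DG against 2DG alone, JUN by its brightest probe set. JUN was 2227 with Met, 1169 with Bu, 1419 with Phen, 2105 with Rot and 2196 with AA, against 755, 932 and 800 under 2DG alone. All 5 were above all 3 (1.15, SE 0.36, adjusted p = 0.0177), although without 2DG array 2 the call was lost at 1.12, and with the deposited scaling it was lost at 0.77. By another JUN probe set, 201466_s_at, all 5 were below all 3, at 82.5 to 196 against 216 to 251. FOSL1 was 3959 with Met, 3620 with Bu, 4007 with Phen and 3344 with Rot, but 1490 with AA, against 1079, 1516 and 1234 under 2DG alone. The AA array lay within the 2DG range and the other 4 were above it (0.85, SE 0.31, adjusted p = 0.0410). This call was lost in 10 of the 12 fits that leave out 1 array, which gave 0.60 to 1.26, and it was kept without AA. It was lost with the deposited scaling at 0.47 and with quantile normalization at 0.62.

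JUND was 1477, 1059 and 1140 with Met, Bu and Phen and 2204 and 1959 with Rot and AA, against 919, 1323 and 1357 under 2DG alone (0.46, SE 0.17, adjusted p = 0.0407). The ranges overlap, and the call was lost without the Rot array, the AA array, 2DG array 2 or 3, or control 3 or 5, with values of 0.24 to 0.54 over all 12 fits. The deposited scaling gave 0.07 and quantile normalization 0.27, both without a call. FOS was 151 with Met, 22.6 with Bu, 41.1 with Phen, 49.8 with Rot and 122 with AA, against 27.2, 16.3 and 8.03 under 2DG alone (1.85, adjusted p = 0.123). FOS thus reached the low-signal level with Met, Rot and AA and on no array of 2DG alone. FOSB had 6.45 to 26.5 with an inhibitor and 6.34 to 12.6 under 2DG alone (0.89, adjusted p = 0.262), all below the low-signal level. JUNB was 187 to 268 with an inhibitor, against 109 to 209 under 2DG alone (0.56, adjusted p = 0.131), and quantile normalization gave 0.77 with a call.

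FOSL2 fell in the same cells by its brightest probe set. It was 62.9 with Met, 130 with Bu, 121 with Phen, 129 with Rot and 135 with AA, against 260, 344 and 301 under 2DG alone, with no overlap (-1.39, SE 0.28, adjusted p = 0.00107). Every leave-one-out fit and both other scalings kept that call, but the mean of all FOSL2 probe sets gave -0.58 without one (adjusted p = 0.124). Another FOSL2 probe set, 218880_at, rose in this comparison.

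The 3 biguanides differ in their side chains and were given at different doses, with 1 array each, so their values stand side by side without a comparison. EGR1 was 9187 at 10 mM Met, 4583 at 300 µM Bu and 5191 at 100 µM Phen. As a group, biguanides minus Rot and AA under 2DG had 0 members called by limma, with 0 under an unadjusted p of 0.05 and 0.0175% of all genes called. The interval for EGR1 was wide, at -2.60 to 2.62 around 0.01, and the arrays of the 2 classes have different own controls. FOSL1 had 0.75 (95% interval -0.32 to 1.82).

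With GS in place of 2DG, Rot or AA did not add to EGR1 in a way that passed the test. EGR1 was 1894 with GS+Rot and 794 with GS+AA_S, against 6123 and 519 under GS alone, so both lay between the 2 GS arrays (0.27, 95% interval -1.52 to 2.05, adjusted p = 0.867). JUN was 2112 with GS+Rot and 1734 with GS+AA_S, against 971 and 785 under GS alone (1.13, adjusted p = 0.0592). FOSL2 was the 1 member called, at 123 with GS+Rot and 127 with GS+AA_S, against 266 and 254 under GS alone (-1.01, SE 0.34, adjusted p = 0.0348), where 24.6% of all genes were called and 13.4% fell. Leaving out any 1 of the 6 arrays involved ended that call, with values of -1.06 to -0.99, as did fits with no filter on low signals or no intensity trend. The mean of all FOSL2 probe sets gave 0.17, and 205409_at (0.79), 218880_at (0.87) and 218881_s_at (0.55) had the opposite sign to the brightest. JUND was also called with the deposited scaling (-0.57), and 15.2% of all calls were upward instead of 45.5%. The GS+Rot_S array, labelled with the supernatant and not in that fit, had EGR1 at 1199, FOS at 87.2, JUN at 2053 and FOSL2 at 134.

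The addition of Rot and AA gave a 4.02 larger log2 difference of EGR1 under 2DG than under GS, which did not pass the test (SE 1.22, adjusted p = 0.0723). Limma called 0 members and 3.73% of all genes in this comparison, with 3 members under an unadjusted p of 0.05. Without GS array 2 the EGR1 difference was 6.91 with a call. Under TM, EGR1 was 3138 with Rot and 336 with AA, against 66.2 with TM alone (3.85, SE 0.93, adjusted p = 0.0700). JUN was 2130 with Rot and 801 with AA, against 427 with TM alone (1.60, adjusted p = 0.127), and FOSL1 was 2008 with Rot and 1065 with AA, against 701 (1.05, adjusted p = 0.263). In all 3 genes the Rot array was the higher one. Limma called 0 members and 0.559% of all genes, with 4 members under an unadjusted p of 0.05. Of all calls 23.4% were upward, against 13.1% with the deposited scaling. Without TM+AA the EGR1 difference was 5.45 and called, and without control 6 it was 3.85 and called.

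**Figure D3:**
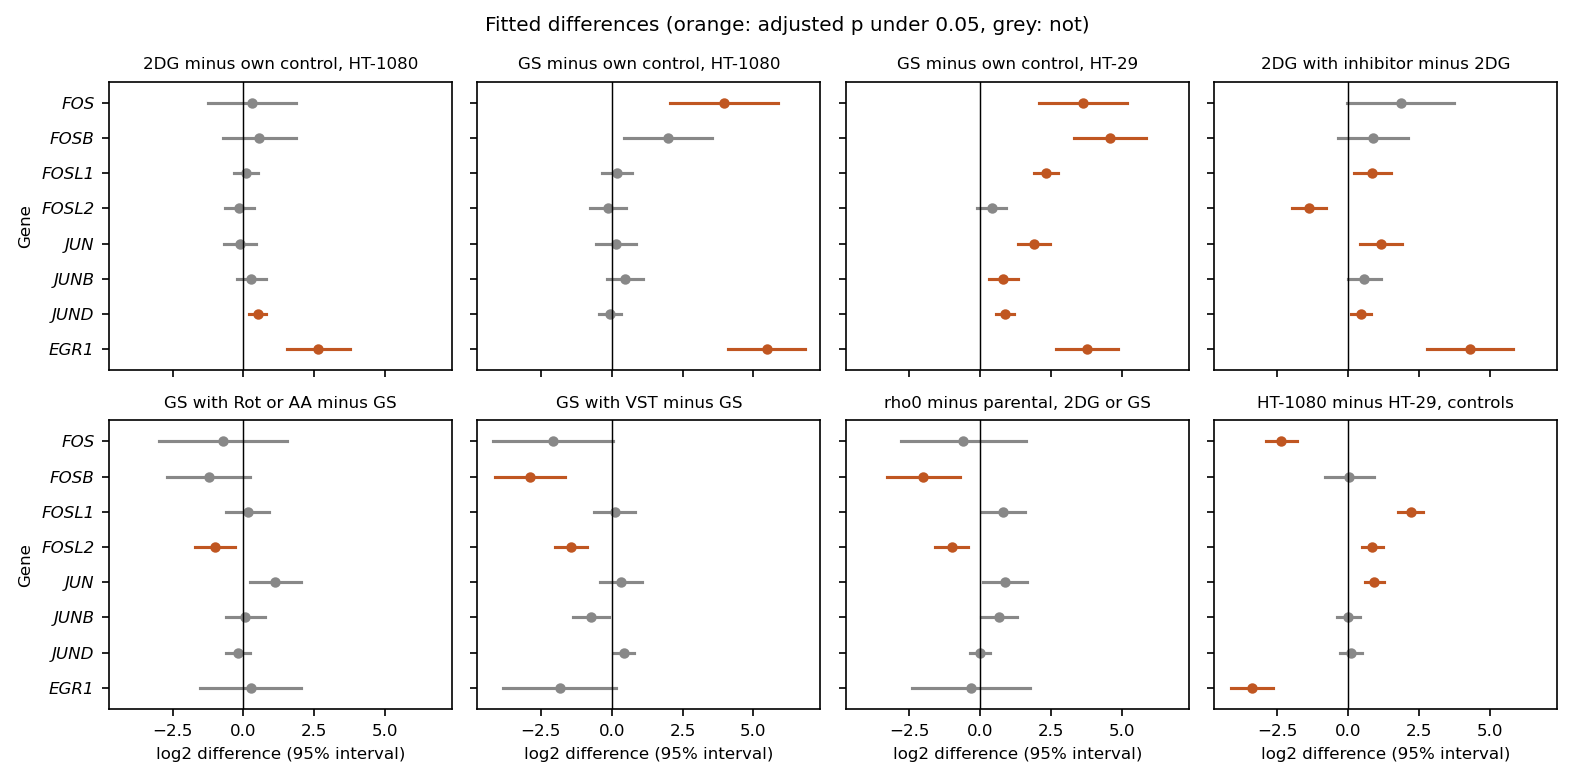
Fitted log2 differences of the 8 tested genes in 8 comparisons, with 95% intervals, and those with adjusted p under 0.05 in orange. EGR1 stands at 4.29 for inhibitors with 2DG and at 0.27 for Rot or AA with GS. FOSL2, drawn by its brightest probe set, is below 0 in the comparisons with a compound and in rho0 cells.

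With VST, a natural macrocyclic product, under GS, EGR1 was high in HT-1080 and low in HT-29. EGR1 was 6338 in HT-1080 with GS+VST, against 6123 and 519 under GS alone and 30.6 on its own control. In HT-29 it was 216 with GS+VST, against 5768, 8928 and 4484 under GS alone and 436 on its own control. By this brightest probe set the HT-29 value was below every control of the line, while the HT-1080 value was above both GS arrays. By 201693_s_at the HT-29 array with VST had 128, above the line's controls at 16.9 to 18.6. By 201694_s_at it had 69.6, within their range of 64.9 to 195. The effect of VST under GS was 5.75 higher in HT-1080 than in HT-29 (SE 1.14, 95% interval 3.25 to 8.25, adjusted p = 0.0409, with the spread taken from other groups), and EGR1 was the 1 member called where 1.15% of all genes were, 0.918% upward. This comparison, and those of VST under GS within each line, were added after the values had been seen. Each VST effect rests on 1 array, so neither has a replicate check. The EGR1 call was lost without HT-29 GS array 1 (5.83, adjusted p = 0.126) or HT-29 control 1 (5.72, adjusted p = 0.0543), and it was also lost with quantile normalization, an offset of 1%, no filter, no intensity trend or the mean of all probe sets, at 4.47 to 5.80. Without HT-1080 GS array 1 the difference was 8.65 and called. FOS had a difference of 4.25 (adjusted p = 0.236), and without that array it was 8.06 with a call.

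Within HT-29, the 1 array of GS+VST had EGR1, FOS, JUNB and FOSL2 below GS alone with a call, in a comparison that called 29.6% of all genes and 18.2% downward. The VST arm has no replicate, and its spread is taken from the other groups. EGR1 had -4.74 (SE 0.80, adjusted p = 0.00141). FOS was 29.0 with GS+VST, against 531, 3179 and 687 under GS alone (-4.31, adjusted p = 0.0138). FOSB was 10.1 with GS+VST, against 118, 830 and 98.9 (-3.33). JUNB was 60.7, against 134, 464 and 206 (-1.37, adjusted p = 0.0164), and FOSL2 was 80.9, against 166, 289 and 262 (-1.36, adjusted p = 0.0180). By the brightest probe sets, the VST array was below all 3 GS arrays in each of these 5 genes. For EGR1 by 201693_s_at the gap was smaller, at 128 against 201 to 590, and by 201694_s_at it was 69.6 against 404 to 1165. JUN was 1209 with GS+VST, within the range under GS alone of 1199 to 3207 (-0.28), and JUND was 1558, within 1155 to 1944 (0.31). FOSL1 was 626, between GS and its own control of 227 (-0.83, adjusted p = 0.0609). FOS lost its call without GS array 1, at -5.03 (adjusted p = 0.0539). FOSL1 was called as well with the deposited scaling (-1.29), and 6.40% of all calls were upward instead of 38.7%. With quantile normalization FOSL2 (-1.01) and JUNB (-1.07) were not called. The FOSL2 probe set 205409_at had 0.67 under the common scaling.

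Within HT-1080, FOSL2 was the 1 member called on the single array of GS+VST, with 14.3% of all genes called and 9.57% fallen. FOSL2 was 92.1 with GS+VST, against 266 and 254 under GS alone (-1.46, SE 0.38, adjusted p = 0.0289), and this call was lost in all 4 fits that leave out 1 array and with quantile normalization (-1.28). The mean of all FOSL2 probe sets gave -0.67 without a call, and 205409_at (0.94), 218880_at (0.81) and 218881_s_at (0.15) had the opposite sign. FOS was 551 with GS+VST, between 1393 and 48.8 under GS alone (-0.06), and FOSB was 5.85, below 112 and 6.98 (-2.67). With the deposited scaling, 3.21% of all calls were upward instead of 33.0%. EGR1 had 1.01 (adjusted p = 0.444), and without GS array 1 it had 3.91 with a call. Over both lines together, 33.5% of all genes were called, 1536 upward and 2291 downward. FOSL2 fell there by its brightest probe set (-1.43, SE 0.27, adjusted p = 0.000392), although 205409_at (0.86) and 218880_at (0.45) had the opposite sign. FOSB had a fitted -2.89. With the deposited scaling JUNB was called too (-1.14), and 6.27% of all calls were upward instead of 40.1%. Without the HT-1080 VST array, EGR1 (-4.85), FOS (-4.39) and JUNB (-1.39) were called too.

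On the 1 array of 2DG+VST in HT-1080, JUND was above 2DG alone with a call, where 7.61% of all genes were called and 2.27% rose. JUND was 2175 with 2DG+VST, against 919, 1323 and 1357 under 2DG alone (1.16, SE 0.28 from the spread of the other groups, adjusted p = 0.0320), and leaving out any of the 3 2DG arrays or their controls ended the call, with 1.04 to 1.27. The control of the VST array is none of the controls of the 2DG arrays. It was also lost with the deposited scaling (0.81), where 6.07% of all calls were upward instead of 29.9%, and with quantile normalization (1.02). EGR1 was 3305 with 2DG+VST, above 355, 245 and 188 under 2DG alone (3.43, adjusted p = 0.0599). FOSL1 was 3666, above 1079, 1516 and 1234 (1.28, adjusted p = 0.0662), and FOSB was 39.9, its highest signal on any array of 2DG (2.08, adjusted p = 0.294). The VST effects under 2DG and GS in HT-1080 were also compared. Limma called 0 members and 0 of all genes there. FOSB had 4.75, given with no p because GS array 1 is among the arrays through which it passed the filter.

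In rho0 cells under 2DG or GS, FOSL2 fell relative to the response of parental cells by its brightest probe set, with 14.8% of all genes called and 7.70% fallen. FOSB had 2.68 and 2.45 in rho0 HT-1080 under 2DG and GS and 11.3 in rho0 HT-29 under GS, against parental values of 6.34 to 12.6 under 2DG, 112 and 6.98 under GS in HT-1080, and 98.9 to 830 in HT-29. It was below the low-signal level on every rho0 array and on every parental array of 2DG. FOSL2 was 171 under 2DG and 244 under GS in rho0 HT-1080 against 492 and 576 on their own controls, and 178 against 205 in rho0 HT-29 (a fitted 0.499-fold of the parental response, SE 0.28 on the log2 scale, adjusted p = 0.0197). Without a rho0 HT-1080 array of 2DG or GS, or its control, the FOSL2 call was lost, with -1.20 to -0.83 over all fits. The mean of all FOSL2 probe sets gave -0.19 without a call, and 205409_at (0.51) and 218880_at (0.94) had the opposite sign. The call remained with the deposited scaling, where 12.1% of all calls were upward instead of 48.0%.

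EGR1, FOS, FOSL1, JUN, JUNB and JUND were not called in that comparison, although FOSL1, JUN and JUNB were under an unadjusted p of 0.05. By its brightest probe set EGR1 was 828 and 1075 in rho0 HT-1080 under 2DG and GS, against 188 to 355 under 2DG and 6123 and 519 under GS in parental cells, and 2793 in rho0 HT-29, against 4484 to 8928 (-0.32, 95% interval -2.40 to 1.75). By 201693_s_at, EGR1 on the rho0 arrays was 4.04 to 6.14 above own controls. Parental values by it were 1.06 to 2.64 under 2DG, 2.09 to 5.08 under GS in HT-1080 and 3.10 to 4.72 in HT-29. By 201694_s_at the rho0 arrays were 3.77 to 3.97 above own controls. Parental values by it were 1.38 to 3.07 under 2DG, 3.02 to 4.70 under GS in HT-1080 and 2.40 to 2.54 in HT-29. FOSL1 was 4369 in rho0 HT-1080 under 2DG, its highest signal in the series, and 2029 under GS, both above every value of parental HT-1080 under the same stress (0.82, adjusted p = 0.142). JUN was 1732 and 1919 in rho0 HT-1080 under 2DG and GS, again above the parental values under these stresses, and 2317 in rho0 HT-29 (0.90, adjusted p = 0.114), and it was called at 1.09 without HT-29 GS array 2 or its control. JUNB was 321 and 183 in rho0 HT-1080 and 458 in rho0 HT-29, where its difference from the own control, 1.69, was the highest for this gene on any array (0.67, adjusted p = 0.159). Under TM, rho0 HT-1080 had EGR1 at 65.6 against 80.2 on its own control.

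FOSL2 and JUN each have probe sets that did not move together. Under 2DG with respiratory inhibitors, FOSL2 fell by 225262_at (-1.39), 228188_at (-2.87) and 218881_s_at (-0.85, adjusted p = 0.0481), but rose by 218880_at (1.23, adjusted p = 0.00349), and 205409_at had 0.99 (adjusted p = 0.0502). In a fit over 21448 single probe sets, 31.5% were called. By 228188_at the FOSL2 signal was 5.91, 11.2, 12.7, 48.0 and 6.16 with Met, Bu, Phen, Rot and AA, against 195, 159 and 124 under 2DG alone. By 218880_at it was 438, 499, 576, 552 and 257 with these 5 in the same order, against 105, 216 and 126 under 2DG alone. Both probe sets separated the groups completely, in opposite directions.

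The change of the log2 ratio between a gene's probe sets was tested over 10008 pairs of all genes, of which 11.5% changed under inhibitors with 2DG. For FOSL2, the ratio of 218880_at to 225262_at rose by 2.62 (SE 0.34, adjusted p = 0.000369) and that of 205409_at by 2.38 (adjusted p = 0.00364). The 218880_at ratio also rose for Rot or AA with GS (1.88), VST with 2DG (2.03), VST with GS (1.87) and rho0 cells under 2DG or GS (1.94), where 10.6%, 3.43%, 16.0% and 2.65% of all pairs changed. In the 2 comparisons of stress alone with control in HT-1080 and in HT-29 under GS, where 0.580%, 0% and 0.240% of pairs changed, no FOSL2 ratio was called. Which transcript ends these probe sets read was not examined here, so a FOSL2 direction holds per probe set.

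For JUN, 201464_x_at and 201465_s_at rose with inhibitors under 2DG (1.15 and 1.96), while 201466_s_at had -0.83 (adjusted p = 0.134) and 213281_at had 0.66 (adjusted p = 0.128). By 201466_s_at the JUN signals with an inhibitor, 82.5 to 196, all lay below those under 2DG alone, 216 to 251. By 201464_x_at they all lay above. The ratio of 201466_s_at to 201464_x_at fell by 1.98 (adjusted p = 0.00271) there, and it had changes of -2.89 for VST with 2DG (adjusted p = 0.0151) and -1.26 for VST with GS (adjusted p = 0.0217). Under GS in HT-29, where 24.5% of single probe sets were called, all 4 JUN probe sets rose, by 1.90, 1.87, 2.08 and 1.15. For EGR1, all 3 probe sets rose with inhibitors under 2DG, at 4.29, 5.49 and 3.73. In the comparison of VST effects between the lines, EGR1 had 5.75 by 227404_s_at and 3.77 by 201694_s_at (adjusted p = 0.0354), and 3.88 by 201693_s_at (adjusted p = 0.124), with 0.951% of single probe sets called. With VST under 2DG, where 7.40% were called, 201693_s_at and 201694_s_at rose (6.72 and 3.37) while 227404_s_at had 3.43 (adjusted p = 0.0566).

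**Figure D4:**
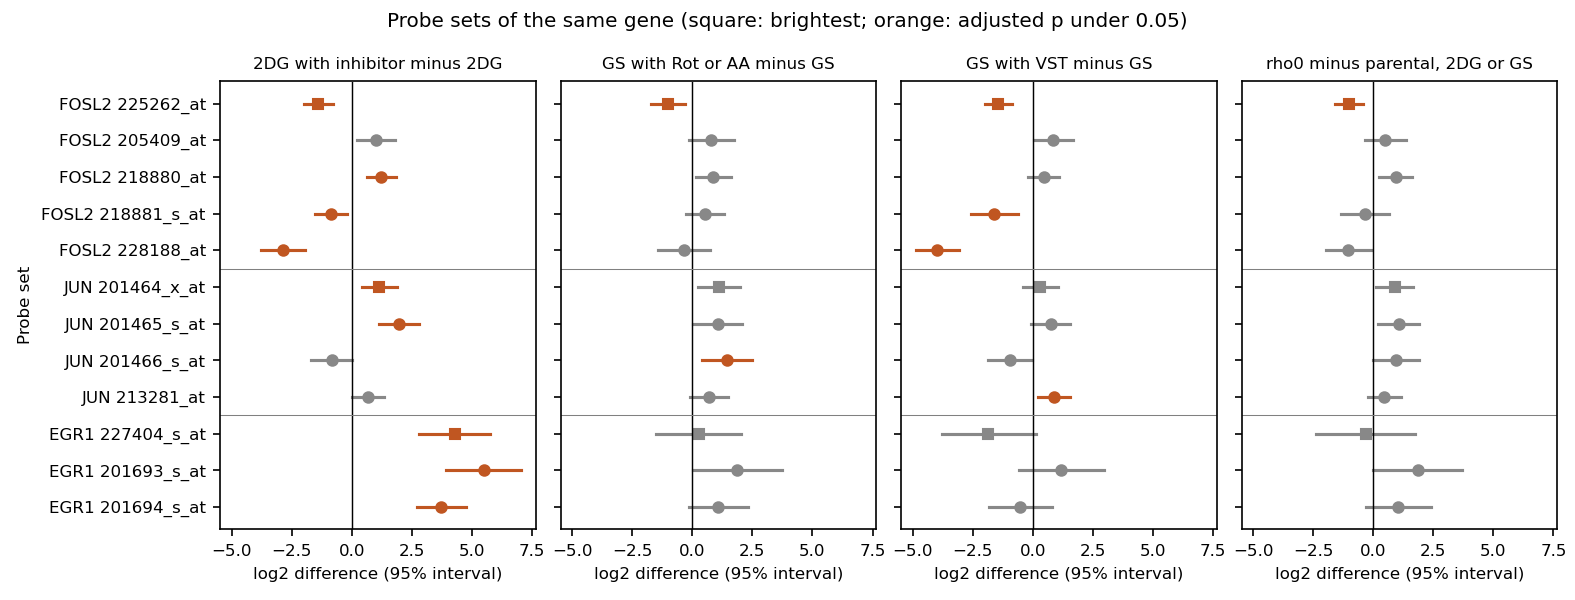
Fitted log2 differences of each probe set of FOSL2, JUN and EGR1 in 4 comparisons, with 95% intervals, squares for the brightest probe set and orange for adjusted p under 0.05. FOSL2 228188_at stands at -2.87 and 218880_at at 1.23 for inhibitors with 2DG, and the 3 EGR1 probe sets stand between 3.73 and 5.49.

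The genes with the most similar pattern were sought for 5 members over the 26 differences from own controls, by Pearson r among 11439 other genes. These arrays share controls and treatments, so r is a description only. FOS was closest to ZFP36 (r = 0.79), whose product destabilises AU-rich mRNAs, CSRNP1 (0.71) and KLF10 (0.69). FOSL1 was closest to DUSP5 (0.89), a phosphatase of ERK kinases, ERRFI1 (0.86), an inhibitor of the EGF receptor, and PPP1R15A (0.85), which reverses the translational block of the stress response. JUN was closest to FOSL1 (0.83), CCN2 (0.81) and IQGAP3 (0.79), and JUND to DIAPH3 (0.83), MCU (0.82), the mitochondrial calcium channel, and PAK2 (0.81). EGR1 was closest to ACOX2 (0.76), SGK1 (0.72) and RLIG1 (0.71). Among the members themselves, EGR1 had r of 0.61 with FOS, 0.19 with FOSL1 and -0.41 with FOSL2.

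Other early response genes, 27 of 29 listed being tested, numbered 18 risen and 3 fallen in HT-29 under GS (median 1.10, against -0.04 over all genes), where 27.2% of all genes were called and 11.6% rose. ATF3, a stress-induced AP-1 partner, had 6.08, PPP1R15A 4.26, DUSP1, a MAP kinase phosphatase, 4.03 and GADD45B 3.29. In HT-1080 under GS 6 rose and 0 fell, with 9.41% of all genes called, led by NFKBIZ (2.58), ATF3 (2.17), PPP1R15A (2.00) and ZFP36 (1.46), and under 2DG, with 8.36% called, 1 rose, TRIB1 (0.83). With inhibitors under 2DG 15 rose and 4 fell (median 1.21, against -0.12 over all genes), with 34.6% of all genes called and 12.8% risen, led by MYC (3.18), TNFAIP3 (2.60), CCN2 (2.41) and ATF3 (2.41). With VST under GS in HT-29, 1 rose and 14 fell, with 18.2% of all genes fallen, led by IER2 (-4.32), NR4A2 (-4.14), TRIB1 (-3.90) and DUSP1 (-3.06), whereas in HT-1080, with 14.3% of all genes called, 5 rose and 2 fell, led by CCN1 (2.37), PHLDA1 (2.07), MYC (1.96) and CCN2 (1.87). The difference of the VST effects between the lines was positive and called for 5 of these genes, against 0.918% of all genes, among them IER2 (3.27), NR4A2 (3.95), TRIB1 (2.68) and KLF4 (4.03), and negative and called for 0.

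Of 11 upstream factors tested, 1 rose and 2 fell with inhibitors under 2DG, a share no higher than the 34.6% of all genes called. ELK4, an SRF cofactor, had -2.10 (adjusted p = 2.02e-05), SRF itself -1.36 (adjusted p = 0.0166) and CREB1 0.59 (adjusted p = 0.00918). Over both lines with VST under GS, 0 rose and 5 fell, led by MEF2D (-2.06), ELK4 (-1.97), SRF (-1.37) and MEF2A (-1.20). There 33.5% of all 11440 genes were called, 1536 upward and 2291 downward. Of 10 MAP kinase pathway genes, 3 rose and 3 fell with inhibitors under 2DG, against 12.8% and 21.8% of all genes. MAP2K6, which activates p38 kinases, had 1.53 there, and -1.66 under 2DG and -2.18 under GS in HT-1080 alone. Of 10 other AP-1 partners, 5 rose and 1 fell in HT-29 under GS, where 11.6% of all genes rose, with MAFF at 2.96, JDP2 at 1.18 and ATF4 at 1.08 beside ATF3. With inhibitors under 2DG, where 34.6% of all genes were called, 4 rose, and JDP2 (-1.74), a repressor of AP-1, fell.

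The lists of target genes held both risen and fallen members. Of 13 AP-1 targets, 3 rose and 1 fell in HT-1080 under 2DG, where 8.36% of all genes were called, with the matrix proteases MMP3 at 2.21, MMP1 at 1.98 and MMP9 at 0.95 and the cytokine IL11 at -1.23. With inhibitors under 2DG 3 rose and 1 fell, namely CXCL8, a chemokine (1.71), CD44 (0.68), HMGA1 (0.37) and MMP1 (-1.28), a share no higher than the 34.6% of all genes called. In HT-29 under GS, HBEGF, an EGF receptor ligand, had 2.95 and CCND1, cyclin D1, had -1.05, among 3 risen and 2 fallen, with 27.2% of all genes called. Of 7 EGR1 targets, 1 rose and 1 fell in HT-29 under GS, a share near the 27.2% of all genes called. They were VEGFA, the vascular growth factor (2.45), and TGFB1, a growth-restraining cytokine (-1.13). With inhibitors under 2DG 0 rose and 1 fell, VEGFA (-2.25), a share no higher than the 34.6% of all genes called. NAB1, a corepressor of EGR1, had -0.69 in HT-29 under GS.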

How the data were processed

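The deposited values are 1-colour array intensities (54675 probe sets on 38 arrays), summarised with MAS5 per the submitters' processing notes. How the authors scaled these intensities is not given in the sources used here. Each array was rescaled to a 2% trimmed mean of 114, and log2(signal + 5.71) was fitted. Probe sets were named through the platform annotation where it gave 1 gene (41097 probe sets; 1801 had several genes and 11777 none). A gene was kept where its brightest probe set reached 45.7 on at least 2 arrays. limma 3.58.1 in R 4.3.3 was fitted over 11440 genes with an intensity trend and with each treated array's own control as a block. The pairing comes from the descriptions, which name the control, and the deviations of the 8 checked pairs correlated by 0.30 to 0.63. The fits were tested on simulated data.

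The members and gene lists were chosen with earlier results of these data known, so they are no independent support. The rule for named genes took all members, the 3 genes closest to each of 5 members, and up to 4 called genes with the largest change from a list. There were 16 comparisons, with 5 added after values had been seen. Alternatives were the offset, the filter, the scaling, the choice of probe set, the trend, the block, fits within a line, and leaving out each array. No count depth applies to arrays, and the number of arrays limits the precision. Nothing in the labels says that arrays of a group came from separate cultures, so p-values measure the spread between these arrays. GS+Rot_S was kept out of the class fit because it may come from the same culture as GS+Rot.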

Additional observations from a re-analysis of the deposited data

Results flagged for a closer look

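The GS effect on FOSL1 differed between the lines by a direct test, by -2.15 for HT-1080 minus HT-29, with fitted effects of 0.18 in HT-1080 and 2.33 in HT-29. The VST effect on EGR1 under GS, by its brightest probe set, also differed between the lines, by 5.75 for HT-1080 minus HT-29, with 1.01 in HT-1080 and -4.74 in HT-29. By 201694_s_at this difference was 3.77, and by 201693_s_at it was 3.88 without a call. Each of these VST effects comes from 1 array. HT-29 GS array 3 was exposed for 14 h, and without it the FOSL1 difference was -2.44 and the EGR1 difference 5.70, both called. Over the fits that leave out 1 array, FOSL1 lost its call in 4 of 10 and EGR1 in 2 of 10. Both also lost it without the intensity trend. EGR1 lost it too with quantile normalization, an offset of 1%, no filter or the mean of all probe sets. The VST comparison between the lines was added after the values had been seen.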

How the results depend on the processing

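The 8 genes in 21 comparisons gave 36 calls, those of FOSB included, as they are in the counts below. Under 342 other settings 298 values kept direction and call, 43 lost the call and 1 reversed, and of 323 values with 1 array left out 248 kept the call and 75 lost it. Of uncalled values, 30 of 1258 were called under another setting and 39 of 1117 with 1 array left out.

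Counts of called members that moved by more than 1.5 times are given here by setting. With the deposited scaling they were 1 for 2DG, 2 for inhibitors with 2DG, 2 for Rot or AA with GS, 0 for VST with 2DG, 0 for HT-1080 rho0 controls, 1 for the HT-29 rho0 control and 2 for VST with GS in HT-1080. With quantile normalization they were 0 for VST with 2DG, 1 for the HT-29 rho0 control, 0 and 3 for VST with GS in HT-1080 and HT-29, and 0 for the VST difference between lines. The mean of all probe sets gave 3 for inhibitors with 2DG, 0 for Rot or AA with GS, 2 for VST with 2DG, 1 for rho0 under stress, 0 for VST with GS in HT-1080 and 0 for the VST line difference. Without the filter there were 1 for 2DG, 3 for inhibitors with 2DG, 0 for Rot or AA with GS and 0 for the VST line difference. Without the intensity trend there were 1 for 2DG, 1 for GS in HT-1080, 0 for the GS line difference, 3 for inhibitors with 2DG, and 0 each for Rot or AA with GS, VST with 2DG, VST with GS in HT-1080 and the VST line difference. An offset of 1% gave 1 for 2DG and 0 for the VST line difference, and one of 20% gave 2 for VST with 2DG, 1 for the HT-29 rho0 control and 2 for VST with GS in HT-1080. With arrays of the same line only there were 1 for TM, 2 for Rot or AA with GS, 5 for VST with 2DG, and 5 and 3 for VST with GS in HT-1080 and HT-29. A filter at the trimmed mean moved no count. Calls over all genes moved with the setting as well. For inhibitors with 2DG, 1460 genes rose and 2495 fell with the common trimmed mean. There were 361 and 4635 with the deposited scaling, and 1290 and 1939 with quantile normalization. The moved counts are thus no result about the members alone. The cause of these changes was not tested.

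Without the replicate block, which pairs each array with its own control, the counts were 1 for 2DG, 2 for the GS line difference, 3 for Rot or AA with GS, 2 for VST with 2DG, 1 for rho0 under stress and 1 for the difference of Rot and AA between 2DG and GS. The other comparisons that could be refitted without the block stayed within 1.5 times. The share of all genes called without the block is not given here, so these counts are no result about the members alone.

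Leaving out 1 array gave counts of 0 to 2 for 2DG, 1 to 2 for GS in HT-1080, 0 to 0 for TM, 6 to 8 for GS in HT-29, 0 to 2 for GS minus 2DG and 0 to 3 for the GS line difference. It gave 2 to 5 for inhibitors with 2DG, 0 to 0 for biguanides against Rot and AA, 0 to 0 for Rot or AA with GS, 0 to 1 for Rot or AA with TM and 0 to 1 for Rot and AA between the stresses. With VST it gave 0 to 0 under 2DG, 1 to 5 under GS, 1 to 1 in HT-1080, 3 to 6 in HT-29, 0 to 0 between the stresses and 0 to 2 between the lines. It gave 0 to 3 for rho0 under stress, 0 to 2 and 0 to 1 for rho0 controls of HT-1080 and HT-29, and 5 to 5 between the lines' controls. The share of all genes called in each such fit is not given here, so these ranges do not single out the members.

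Reversed values came from the choice of probe set. For FOSL2, 205409_at gave 0.99 for inhibitors with 2DG, 0.79 for Rot or AA with GS, 0.86 for VST with GS, 0.51 for rho0 under stress, and 0.94 and 0.67 for VST with GS in HT-1080 and HT-29. 218880_at gave 1.23, 0.87, 0.45 and 0.94 for the first 4 of these and 0.81 for VST with GS in HT-1080. 218881_s_at gave 0.55 for Rot or AA with GS, 0.15 for VST with GS in HT-1080 and 3.39 for the VST line difference, and the mean of all FOSL2 probe sets gave 0.17 for Rot or AA with GS. For JUN, 201466_s_at gave -0.83 for inhibitors with 2DG. Groups of 1 to 3 arrays and signals near the low level, as for FOS, FOSB and EGR1 in HT-1080 controls, limit the precision of these values.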
